A study of Mus musculus with 7 samples.

Results

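The 10 genes described here encode receptors for glutamate, the main excitatory transmitter of the brain. They are 6 genes for NMDA receptor subunits (Grin1, Grin2a, Grin2b, Grin2c, Grin2d and Grin3a) and 4 genes for metabotropic glutamate receptors (Grm3, Grm4, Grm5 and Grm7). They were taken by name from 49315 genes in the count files, and all 10 were found and had enough counts to be tested. RNA was sequenced in 7 samples of cultured primary mouse oligodendroglia prepared from the brains of newborn pups, 4 from wildtype controls (Klf13-wt) and 3 from Klf13 knockouts (Klf13-ko), all kept in differentiating SATO medium for 6 days. The medium contained thyroid hormone, and the cells came from mixed glial cultures by shake-off with depletion of microglia. The knockout mice lacked Klf13 in every tissue and cell type, so that any other cell in the knockout cultures lacked it too. Gene counts summed to between 24507471 and 59596479 per library. Klf13 itself had between 10670 and 12000 normalized counts in the controls and between 802 and 961 in the knockouts, as the labels require.

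NMDA receptors are tetrameric channels that open when glutamate and a co-agonist, glycine or D-serine, are bound together. The subunit encoded by Grin1 is part of every NMDA receptor, the Grin2 subunits bind glutamate and set the kinetics, and the Grin3 subunits bind glycine and lower the permeability to calcium. Metabotropic glutamate receptors are G protein-coupled. Group I receptors such as Grm5 act through Gq and phospholipase C, and those of group II (such as Grm2 and Grm3) and group III (such as Grm4, Grm6, Grm7 and Grm8) through Gi and Go. Oligodendrocyte progenitor cells (OPCs) receive synaptic input from neurons and carry both kinds of receptor, and neurons express many of the same genes at high levels.

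Of the 10 receptor genes, 7 were higher in the Klf13 knockout and 1 was lower at an adjusted p of at most 0.05. Among all 18352 genes tested, 11.6% were higher and 12.2% lower by this rule. Grin2b, Grm4, Grin2d, Grin1, Grin2c, Grm3 and Grm5 rose, from 6.25-fold for Grin2b to 1.82-fold for Grm5. Grm7 fell by 1.99-fold, and Grin2a and Grin3a did not pass the test. With the additional requirement of an absolute log2 fold change of 1, the threshold of the study, 6 were higher (3.97% of all genes) and 0 were lower (3.08% of all genes). By DESeq2 and limma voom that number was also 0, as it was at an unadjusted p under 0.05 in edgeR. Grm7 missed it at a log2 fold change of -0.99, and reached -1.003 when the replicate number was included as a block, which raised the number from 0 to 1. Without knockout replicate 2, 4 receptor genes were higher in place of 7, and 3 in place of 6 with the fold requirement, since Grin2b, Grin2c and Grm4 lost the call. That fit called 850 of 18604 genes higher in all, against 2122 of 18352 with every library. The median log2 fold change over the 10 genes was 1.52, and over all tested genes it was -0.0037. The groups did not overlap for 8 receptor genes, with the knockouts above the controls for 7 (18.3% of all genes) and below for 1 (18.0%), 36.2% of all genes in either direction. In bulk RNA a change in the number of cells of a type and a change in RNA per cell cannot be told apart.

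**Figure D1:**
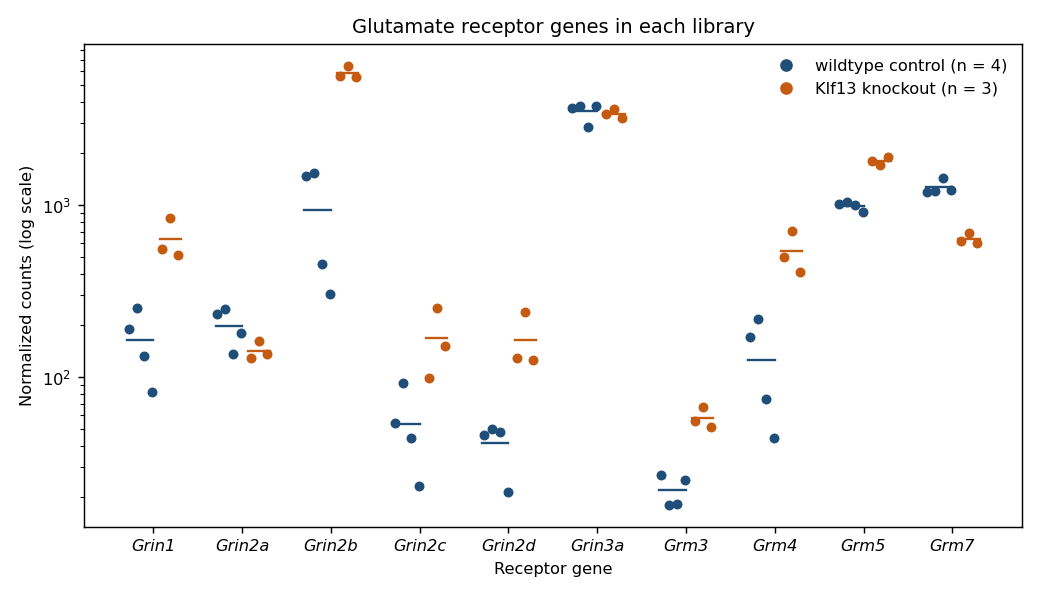
Normalized counts of the 10 receptor genes (log scale) in each of 4 wildtype control libraries (blue) and 3 Klf13 knockout libraries (orange). Points are libraries, drawn from replicate 1 on the left to the last on the right, and lines are group means. The groups overlap for Grin2a and Grin3a, Grm7 is lower in each knockout library, and the other 7 genes are higher in each knockout library.

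Upstream sequences of the changed receptor genes were examined for the hexamers that make up the Klf binding motif used by the study, namely ACGCCC along with ACACCC together with ACTCCC, and further CCGCCC along with CCACCC together with CCTCCC, on either strand and with overlaps counted. The RefSeq promoter table (GRCm38.p6) held 5 of the 10 genes. Of these, 4 are shown because they set the gene that fell, Grm7, beside genes that rose, Grin1, Grin2c and Grm3. Each line gives the 250 bases before the start of transcription, 5′ to 3′ on the strand of the gene, with the hexamers in capitals. The windows lie at chr6:110645348-110645597 (plus strand) for Grm7, chr11:115267244-115267493 (minus) for Grin2c, chr5:9725353-9725602 (minus) for Grm3 and chr2:25319188-25319437 (minus) for Grin1.
Grm7: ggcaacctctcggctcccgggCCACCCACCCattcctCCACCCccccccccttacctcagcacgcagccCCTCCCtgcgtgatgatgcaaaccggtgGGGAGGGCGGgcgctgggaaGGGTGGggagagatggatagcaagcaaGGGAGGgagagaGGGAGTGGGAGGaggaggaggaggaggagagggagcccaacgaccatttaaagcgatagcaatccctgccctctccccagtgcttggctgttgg
Grin2c: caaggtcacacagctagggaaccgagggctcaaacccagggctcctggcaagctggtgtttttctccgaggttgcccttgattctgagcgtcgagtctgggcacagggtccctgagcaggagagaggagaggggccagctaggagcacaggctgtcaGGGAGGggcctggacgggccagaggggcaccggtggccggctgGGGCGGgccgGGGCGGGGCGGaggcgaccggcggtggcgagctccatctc
Grm3: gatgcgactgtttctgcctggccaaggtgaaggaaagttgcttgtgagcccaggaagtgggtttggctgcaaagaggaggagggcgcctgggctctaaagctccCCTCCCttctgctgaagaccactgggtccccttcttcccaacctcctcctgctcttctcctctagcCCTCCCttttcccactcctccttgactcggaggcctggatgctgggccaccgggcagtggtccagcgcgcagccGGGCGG
Grin1: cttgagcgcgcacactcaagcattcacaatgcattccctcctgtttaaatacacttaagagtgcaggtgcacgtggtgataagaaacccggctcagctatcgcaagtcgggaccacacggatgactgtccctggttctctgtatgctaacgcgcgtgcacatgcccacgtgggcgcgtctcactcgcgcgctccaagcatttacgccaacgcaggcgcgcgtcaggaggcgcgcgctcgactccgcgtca

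Grm7 held 10 such hexamers, Grin2c 4, Grm3 3, and Grin1 and Grin2d held 0. At least 1 was present before 72.2% of 27025 genes with such a window, with a median of 1. At least 3, 4 and 10 were present before 32.7%, 21.0% and 0.892% of them. These windows used the first listed start of each gene, and those of receptor genes the start nearest to the gene model. Of the receptor genes examined, only Grm7 had 2 listed starts. The Grm7 window had a GC content of 65.2% against a median of 52% over all windows, and those of Grin2c, Grm3 and Grin1 had 68.8%, 62.4% and 58.8%. The start used for Grm3 lies 182 bases upstream of the gene model in the files, and 17 bases of the Grm7 window are exonic there. In the Grm3 window the hexamer nearest to the start ends at the last base shown. A match is a stretch of letters and not a measured binding site, and absence says only that these letters are not in the window. The Grin2d window is not shown since it lies within an exon of the gene model used for counting.

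Grin2b, which encodes the NMDA subunit typical of the immature brain, changed most. It had 1477, 1529, 453 and 304 normalized counts in controls 1 to 4 against 5611, 6446 and 5548 in knockouts 1 to 3. Each knockout library was above each control, and the controls themselves fell into a higher pair (replicates 1 and 2) and a lower pair (3 and 4), which differed by up to 5.03-fold. The log2 fold change was 2.64 (standard error, SE, 0.55, with edgeR adjusted p = 0.0148). Grin2b lies on chromosome 6 of GRCm38 from 135713233 to 136173511. Without knockout replicate 2 the adjusted p in edgeR was 0.0526 at a log2 fold change of 2.57.

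Grin1, for the subunit that every NMDA receptor needs, had 190, 253, 133 and 81.4 normalized counts in controls against 554, 839 and 513 in knockouts. The groups did not overlap, and the order of the control libraries was close to that for Grin2b, with replicates 3 and 4 again lowest. Its log2 fold change was 1.95 (SE 0.37, with edgeR adjusted p = 0.0105). Grin1 is located on chromosome 2 from 25291181 to 25319187 and shares 13.5% of its exonic bases with the antisense gene Grin1os, which had 123 counts in all 7 libraries together. Whether counting used the strand is not given in the sources used here.

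Grin2c and Grin2d, for subunits found in the cerebellum and in interneurons and early brain, were low in the controls. Grin2d had 45.9, 50.3, 48.0 and 21.5 normalized counts in controls against 130, 239 and 126 in knockouts. Knockout replicate 2 stood well above the other knockout libraries, and the lowest knockout library was still above every control. The log2 fold change of Grin2d was 2.00 (SE 0.36, with edgeR adjusted p = 0.0082). Grin2c had 54.0, 92.5, 44.6 and 23.4 in controls against 99.3, 253 and 152 in knockouts, which left a narrow gap between control replicate 2 and knockout replicate 1. Its log2 fold change of 1.66 (SE 0.47) came with an adjusted p of 0.0419 in edgeR, and without knockout replicate 2 it was 1.24 with an adjusted p of 0.150. The call for Grin2c was also lost without control replicate 1, 3 or 4 or knockout replicate 3, with log2 fold changes of 1.69, 1.59, 1.43 and 1.75 and adjusted p from 0.0626 to 0.0784 in edgeR. Grin2d lies on chromosome 7 from 45831883 to 45878378, 18.0 Mb from Klf13, and shares 9.66% of its exonic bases with Gm45441 on the other strand (119 counts in all libraries). Grin2c is on chromosome 11 from 115249169 to 115267243.

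Grin3a and Grin2a were the receptor genes without a call. Grin3a, for the glycine-binding subunit that lowers calcium permeability, had 3651, 3755, 2853 and 3772 normalized counts in controls against 3378, 3598 and 3231 in knockouts. All knockout values lay inside the control range, which was itself narrow apart from control replicate 3. The log2 fold change was -0.044 with a 95% interval from -0.29 to 0.20 (adjusted p = 0.802 in edgeR). Its sign turned to 0.0022 with the replicate block. Grin2a, for the subunit that prevails in the adult forebrain, had 232, 248, 137 and 180 in controls against 130, 162 and 136 in knockouts. The groups overlapped through control replicate 3, and the log2 fold change of -0.48 had a 95% interval from -1.003 to 0.046 (adjusted p = 0.171 in edgeR). Without control replicate 3 it was -0.62 with an adjusted p of 0.0487 in edgeR. Grin3a lies on chromosome 4 from 49661611 to 49845744 and Grin2a on chromosome 16 from 9567898 to 9995560.

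The metabotropic genes Grm5 and Grm7 moved in opposite directions, both with little spread within groups. Grm5, the group I receptor known from OPCs and astrocytes, had 1021, 1044, 997 and 917 normalized counts in controls against 1816, 1716 and 1893 in knockouts. The highest and lowest library of a group differed by 1.14-fold in the controls and 1.10-fold in the knockouts, far less than the distance between the groups. The log2 fold change of 0.86 (SE 0.07, with edgeR adjusted p = 0.000301) was the most precise of the 10 genes, and by p Grm5 was at rank 160 of all tested genes. Grm7, the group III receptor with the lowest affinity for glutamate, had 1190, 1211, 1436 and 1230 in controls against 621, 692 and 599 in knockouts. Every knockout library was below every control, and the log2 fold change was -0.99 (SE 0.10, with edgeR adjusted p = 0.00071). With each library left out in turn, Grm5 stayed between 0.84 and 0.90 and Grm7 between -1.05 and -0.93 on the log2 scale. Grm5 is located on chromosome 7 from 87584168 to 88134907, 23.6 Mb from Klf13, and Grm7 on chromosome 6 from 110645581 to 111567230.

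Grm4 and Grm3 rose from lower levels. Grm4, a presynaptic receptor of group III, had 170, 217, 74.3 and 44.0 normalized counts in controls against 502, 705 and 407 in knockouts. As for Grin2b, control replicates 3 and 4 were lowest, and the highest control was 4.94-fold above the lowest. The log2 fold change of Grm4 was 2.09 (SE 0.51, with edgeR adjusted p = 0.0258), and without knockout replicate 1 or 2 it was 2.16 and 1.85 with an adjusted p of 0.0612 and 0.0933. Grm3, a group II receptor of neurons and astrocytes, had 27.0, 18.1, 18.3 and 25.3 in controls against 56.0, 66.7 and 51.0 in knockouts. Its control libraries did not follow the order seen for Grin2b. The log2 fold change of Grm3 was 1.39 (SE 0.23, with edgeR adjusted p = 0.00667), from counts of 16 to 97 per library. Grm4 lies on chromosome 17 from 27422387 to 27513341 and Grm3 on chromosome 5 from 9485541 to 9725170.

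**Figure D2:**
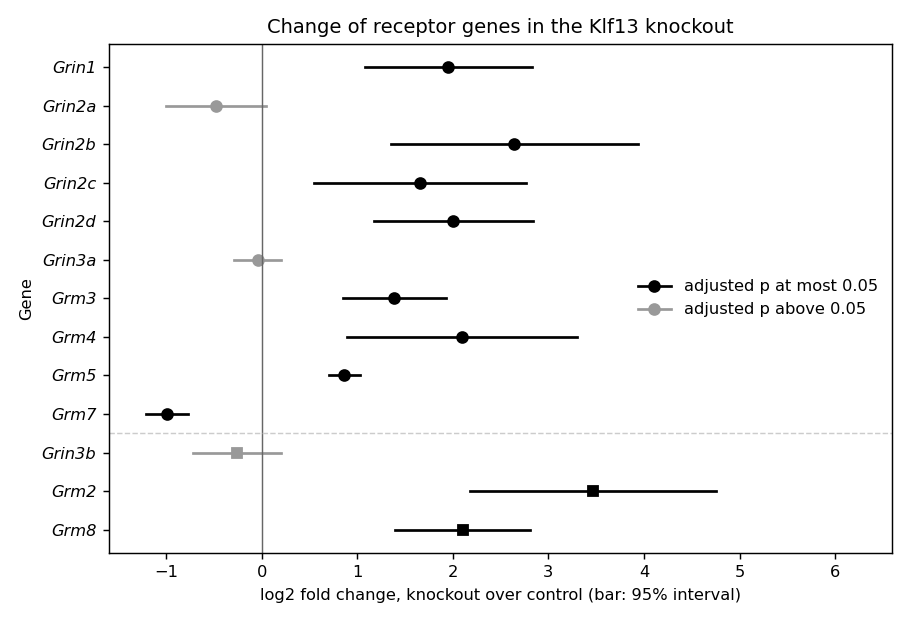
Log2 fold change of knockout over control for the 10 receptor genes (circles, above the dashed line) and 3 other tested genes of the families (squares). Bars are 95% intervals from edgeR, and black marks an adjusted p of at most 0.05. The intervals of Grm5 (0.70 to 1.02) and Grm7 (-1.21 to -0.77) are the shortest, and those of Grin2a, Grin3a and Grin3b include 0.

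Of 4 further genes of these families, 2 were higher in the knockout, 1 did not pass the test and 1 was too low to be tested. Grm2, the partner of Grm3 in group II, had 25.7, 42.2, 13.7 and 5.62 normalized counts in controls against 244, 309 and 171 in knockouts, a log2 fold change of 3.47 (SE 0.55, with edgeR adjusted p = 0.00577). Grm8 had 74.3 to 185 in controls against 452 to 639 in knockouts (log2 fold change 2.10, adjusted p = 0.00401 in edgeR). Grin3b, which shares 32.1% of its exonic bases with Tmem259 on the other strand, had 35.2 to 47.7 in controls against 32.7 to 37.9 in knockouts (adjusted p = 0.405 in edgeR). Grm6, the receptor of retinal bipolar cells, had 0 to 2 counts per library. A library with 0 counts can still hide an expected count of up to 3.

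Levels of different genes were compared as normalized counts per kilobase of exonic length. In the controls Grin3a was highest at 286 ± 35.8 (SD, n = 4), followed by Grm7 at 215 ± 19.4, whose range overlapped with that of Grin3a. Grm5 came next at 97.1 ± 5.37 and did not overlap with either neighbour. Below it stood Grin2b at 37.9 ± 26.3, Grm4 at 23.8 ± 15.2, Grin1 at 17.0 ± 7.64, Grin2a at 11.1 ± 2.83, Grin2c at 10.6 ± 5.74, Grm3 at 7.27 ± 1.52 and Grin2d at 6.22 ± 2.01. From Grin2b downwards the ranges of neighbouring genes overlapped. Within each of the 4 control libraries Grin2b was above Grm4, and the range of Grin2b (12.2 to 61.6) did not overlap with those of Grm3 (5.94 to 8.86) and Grin2d (3.23 to 7.55).

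In the knockouts the order was different at the top. Grin3a stayed first at 277 ± 15.0 per kilobase (SD, n = 3), and Grin2b was second at 236 ± 20.2, without overlap between them. Grm5 at 176 ± 8.62 followed, and then Grm7 at 108 ± 8.30 and Grm4 at 101 ± 28.7, which overlapped. Grin1 at 65.5 ± 18.3 overlapped with Grm4, and Grin2c at 33.3 ± 15.5, Grin2d at 24.8 ± 9.66 and Grm3 at 19.0 ± 2.62 formed a further overlapping series. Grin2a was last at 7.95 ± 0.961, without overlap with Grm3.

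Within the NMDA genes the composition differed between the groups. Grin3a made up 78.3% ± 8.25 (SD, n = 4) of the summed level per kilobase of the 6 genes in the controls and 43.2% ± 2.92 (SD, n = 3) in the knockouts. Over the same libraries Grin2b went from 9.67% ± 5.59 to 36.7% ± 1.20 and Grin1 from 4.51% ± 1.505 to 10.04% ± 1.54. None of these shares overlapped between the groups. The ratio of Grin2b to Grin3a per kilobase was 0.200, 0.201, 0.0784 and 0.0398 in controls 1 to 4 against 0.821, 0.885 and 0.848 in knockouts 1 to 3. The summed level of the 6 genes was 369 ± 65.0 in the controls and 645 ± 77.5 in the knockouts.

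Among the 4 metabotropic genes, Grm7 made up 62.7% ± 4.90 of the summed level per kilobase in the controls and 26.7% ± 0.057 in the knockouts. Grm5 went from 28.3% ± 0.947 to 43.9% ± 5.34 and Grm4 from 6.84% ± 4.27 to 24.7% ± 5.07 of the sum. The ratio of Grm5 to Grm7 per kilobase lay between 0.399 and 0.495 in the controls and between 1.42 and 1.82 in the knockouts. The sum itself differed less, with 343 ± 20.3 in the controls and 405 ± 31.1 in the knockouts.

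**Figure D3:**
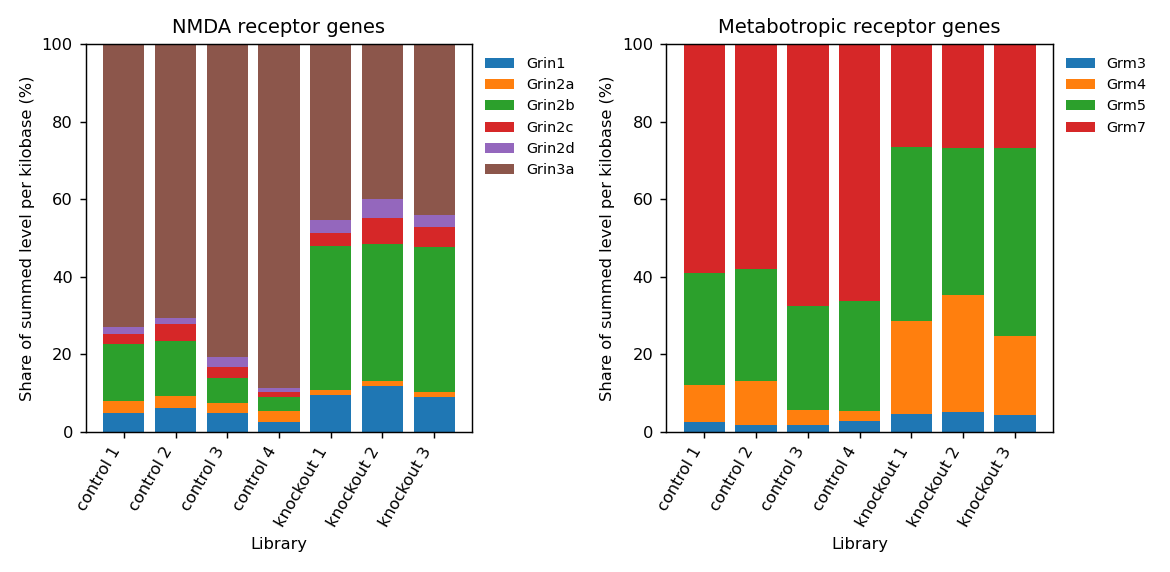
Share of each gene in the summed level per kilobase, in percent, of the 6 NMDA receptor genes (left) and the 4 metabotropic receptor genes (right) in each library. The brown part of the left panel, Grin3a, takes 70.6% to 88.9% in the controls and 39.9% to 45.5% in the knockouts, and the red part of the right panel, Grm7, takes 58.1% to 67.5% and 26.7% to 26.8%.

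Markers of cell types were set beside the receptor genes, since neurons and astrocytes use many of them. Of 13 tested neuron markers 10 were higher in the knockout and 0 lower (3 had an unadjusted p above 0.05 too). The summed level of the 14 markers was 20577 to 29766 normalized counts in controls against 44108 to 54178 in knockouts. Map2, also present in oligodendroglia, held most of it. Without Map2, left out after its value was seen, the sum was 6801, 8576, 4793 and 3296 in controls 1 to 4 against 14545, 21164 and 13764 in knockouts 1 to 3. Control replicates 3 and 4 were thus below 1 and 2, as they were for 6 of the 10 receptor genes (Grin1, Grin2a, Grin2b, Grin2c, Grm4 and Grm5) and not for Grin2d, Grin3a, Grm3 and Grm7. Knockout replicate 2 was highest among the knockouts for these markers and for each receptor gene except Grm5, where it was lowest. Gad1, Gad2, Slc32a1 and Snap25 were present in every library, as was Slc17a6, a vesicular glutamate transporter (4 to 46 counts, among the higher markers). Slc17a7, the vesicular transporter of cortical glutamatergic neurons, had at most 13 counts and was not tested. Nefl, Nefm and Eno2 did not pass the test, with log2 fold changes of -0.45, -0.73 and -0.013. The part of the neuron markers in the receptor results was not tested.

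Of 9 astrocyte markers 8 were higher and 0 lower, and their summed level was 105088 to 143942 normalized counts in controls against 202092 to 237245 in knockouts. Gfap was the most abundant of them. The 8 oligodendrocyte markers, with Mbp the most counted, were all lower, with sums of 1017360 to 1202580 in controls against 280835 to 316684 in knockouts. Among 5 OPC markers 2 were higher, Vcan and Ptprz1, and the sums were 135393 to 145125 and 171123 to 172632. The log2 fold changes were 0.50 for Vcan, 0.33 for Ptprz1, 0.26 for Gpr17, 0.14 for Cspg4 and 0.071 for Pdgfra, with the knockouts above the controls for the first 3. Microglia markers overlapped between the groups, with 54678 in control replicate 3 against 11458 to 12650 in the other controls. Fibroblast and mural cell markers were highest in control replicates 3 and 4, at 41244 and 31207. Control replicates 1 and 2 had 9600 and 6190 and the knockouts 2121 to 6554, so that the groups overlapped, with 1 of 5 genes (Dcn) lower at an adjusted p of 0.0437 in edgeR. No marker in any list was at 3 counts or fewer in every library, and the part of these cell types in the receptor results was not tested.

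**Figure D4:**
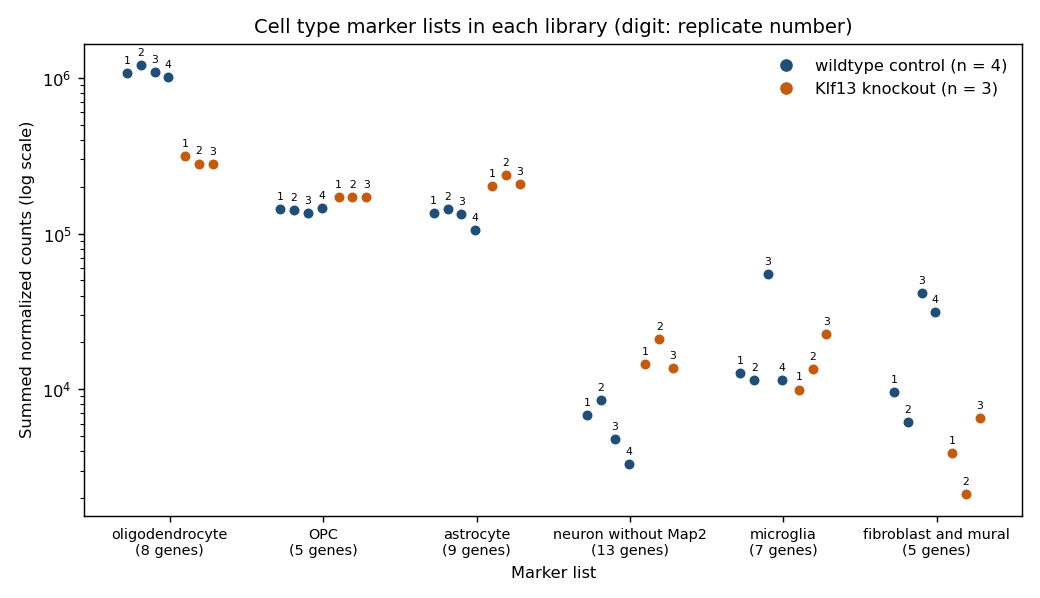
Summed normalized counts (log scale) of 6 lists of cell type markers in each control (blue) and knockout (orange) library, with the replicate number above each point. Neuron markers without Map2 run from 3296 to 8576 in the controls and from 13764 to 21164 in the knockouts, with control replicates 3 and 4 lowest.

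The libraries also differed in the share of counts on Gm42418, Gm23935 and Lars2, where ribosomal RNA reads collect. It was 14.1% to 18.0% in controls 1 and 4 along with knockouts 1 and 3, and 6.03% to 7.56% in controls 2 and 3 along with knockout 2. Within the libraries of high share (2 against 2), the log2 fold changes were 2.64 for Grin2b, 1.97 for Grin1, 1.002 for Grm3, 0.91 for Grm5 and -1.01 for Grm7. Within those of low share (2 against 1) they were 2.69, 2.11, 1.85, 0.73 and -0.95. All 10 receptor genes kept their sign in both classes except Grin3a, which was -0.19 in the first and 0.11 in the second. The numbers of calls were smaller, with 2 higher and 1 lower receptor genes in the first class, where 650 and 1025 of 18372 genes were called in all, and 0 of 10 in the second. The second class holds 1 knockout library, and edgeR called 0 of 18767 genes there, Klf13 included (adjusted p = 0.270), so that the absence of calls says nothing about the receptor genes.

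Genes around the receptors were counted over 6 lists with 61 genes, the 4 further receptor genes included, of which 57 were tested. At an adjusted p of at most 0.05, 26 were higher and 2 lower, against 11.6% and 12.2% of all genes. The median log2 fold change over the 57 genes was 0.28. Without knockout replicate 2 the number of higher genes was 12, in a fit that called 850 of 18604 genes higher in all against 2122 of 18352 with every library.

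Scaffold and auxiliary proteins of NMDA receptors held 9 higher genes and 1 lower gene of 15, with a median of 0.84. Rph3a, which binds GluN2A, and Shank1, a postsynaptic scaffold, rose furthest, with log2 fold changes of 2.31 and 2.15. Rph3a had 13.1 to 97.5 normalized counts in controls against 204 to 355 in knockouts. Dlg4, the scaffold PSD-95 that holds NMDA receptors at synapses, overlapped between the groups and had a log2 fold change of 0.61 (adjusted p = 0.0404 in edgeR). Dlg1, its relative SAP97, was the gene of this list that fell, from 9219 to 10377 in the controls to 4761 to 5442 in the knockouts (log2 fold change -0.92, adjusted p = 0.000214 in edgeR). Per kilobase Dlg4 was highest of the list over all 7 libraries, but Dlg1 was above it in the controls (1086 against 778) and below it in the knockouts (575 against 1184). Dlgap4 (0.44) was the called gene with the smallest rise.

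Among 7 kinases that act on or after NMDA receptors, 3 were higher and 0 lower. They were Camk2a, Camk2b and Camk2g, subunits of the calcium-dependent kinase CaMKII, with log2 fold changes of 1.79, 1.49 and 0.74. The fourth subunit gene, Camk2d, had -0.047 (adjusted p = 0.802 in edgeR). Fyn, the Src family kinase of myelinating cells and the highest of the list per length, had 52616 to 62500 normalized counts in controls against 48547 to 55552 in knockouts, which overlapped.

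Genes for co-agonist supply held 2 higher and 0 lower genes of 7 tested, with a median of 0.15. Phgdh, the first enzyme of serine synthesis, had a log2 fold change of 0.73 (adjusted p = 0.00801 in edgeR), and Srr, which makes D-serine, 0.22 (adjusted p = 0.0360). Psat1, the next enzyme after Phgdh and the highest of the list per length, had 11466 to 12191 in controls against 11305 to 11808 in knockouts. Dao and Slc6a5 had at most 8 and 3 counts and were not tested.

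G proteins, effectors and adaptors of metabotropic receptors held 5 higher and 0 lower genes of 15, with a median of 0.0010. The higher genes were Plcb4 (log2 fold change 1.03), Gnai1 (0.69), Itpr1 (0.55), Plcb1 (0.36) and Gnaq (0.28). Gna11, which like Gnaq encodes an alpha subunit of the Gq class, had -0.18 and did not pass the test (edgeR, adjusted p = 0.315). The genes of the Homer adaptors, which tether Grm5 to the endoplasmic reticulum, had log2 fold changes of -0.036 (Homer1), 0.064 (Homer2) and -0.38 (Homer3), and none passed the test. Gnai2, an inhibitory alpha subunit and the gene of the list with the highest level per length, had a log2 fold change of -0.0098 (edgeR, adjusted p = 0.964).

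Of 10 tested genes for glutamate uptake, vesicle loading and metabolism, 5 were higher and 1 was lower. Slc17a6, a vesicular glutamate transporter, had 5.40 to 14.0 normalized counts in controls against 16.8 to 31.6 in knockouts (log2 fold change 1.35, adjusted p = 0.0395 in edgeR), from at most 46 counts per library. Slc7a11, the cystine-glutamate exchanger, and Slc1a3, the uptake carrier GLAST, had log2 fold changes of 1.04 and 1.03. Slc1a2 (0.61) and Glud1 (0.47) were the other higher genes. Slc1a1, the uptake carrier EAAC1 of neurons and oligodendroglia, fell from 19151 to 25829 in the controls to 15276 to 17164 in the knockouts (log2 fold change -0.43, adjusted p = 0.0284 in edgeR). Glul, the glutamine synthetase of astrocytes and oligodendroglia, had the highest level per length and did not pass the test (log2 fold change 0.53, edgeR, adjusted p = 0.0615). Slc1a2 and Slc1a3 are also on the list of astrocyte markers and Slc17a6 is on that of neurons.

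**Figure D5:**
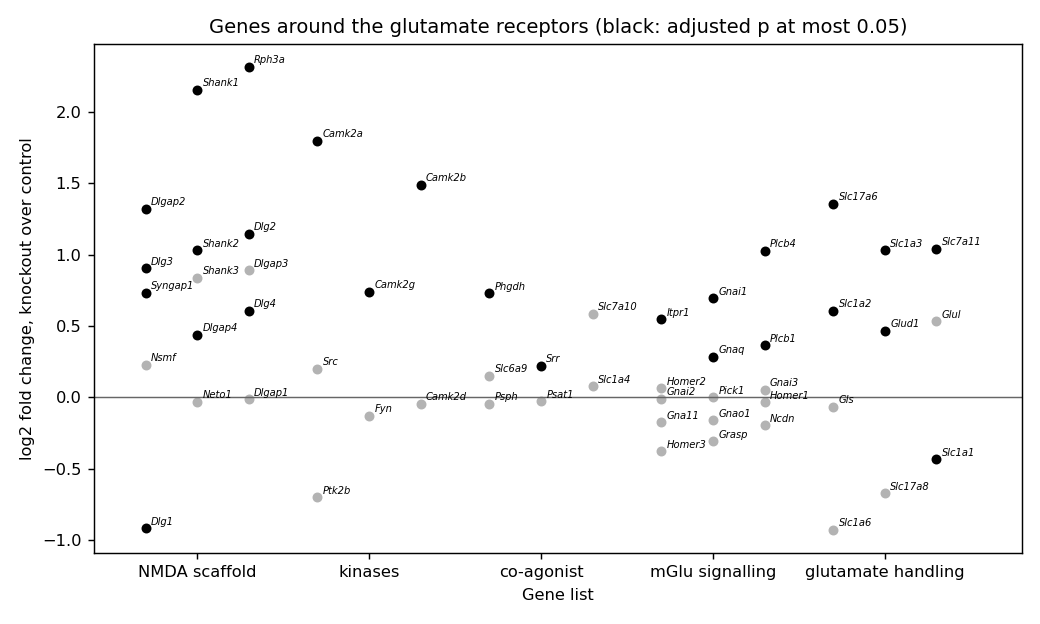
Log2 fold change of knockout over control for the tested genes of 5 lists around the glutamate receptors. Each point is a gene, and black marks a call by edgeR. Scaffold genes run from -0.92 (Dlg1) to 2.31 (Rph3a), and the called mGlu signalling genes lie between 0.28 (Gnaq) and 1.03 (Plcb4).

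Profiles over the 7 libraries were compared by the root mean square difference of centred log2 CPM, among 15999 genes with a mean of at least 20 normalized counts. Nearest to Grin2d, the NMDA gene with the smallest p, were Cntn5, a neuronal adhesion molecule (0.158), Cygb, which encodes cytoglobin (0.169), and Ccsap (0.186), against a median of 1.09 over all genes. Among the receptor genes Grin1 was nearest to it (0.251). Nearest to Grm5 were Jpt1 (0.0661), Ago4, an Argonaute protein (0.0689), and Il1rapl1, a synaptic adhesion receptor (0.0728), with a median of 0.487 over all genes. Since the libraries fall into 2 groups, a likeness over libraries includes the difference between the groups, and Jpt1 and Il1rapl1 had log2 fold changes of 0.84 and 0.89.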

How the data were processed

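Total RNA of 7 samples was made into libraries with a NEBNext Ultra II kit and sequenced in pairs of reads; how ribosomal RNA was removed is not given in the sources used here. The authors trimmed reads with Trimmomatic (0.36), aligned them with STAR (2.5.2b) to an Ensembl mouse genome and counted unique exonic hits per gene with Subread (1.5.2), and the deposited values are these raw counts. The annotation release and the strand setting are not stated. The build was taken as GRCm38, since 44858 of 49056 genes found in an annotation of that build had identical coordinates in both. Symbols were found for 48970 of 49315 identifiers. The fit was made by edgeR 4.0.16 under R 4.3.3 (filterByExpr by group, TMM factors, robust quasi-likelihood fit, group as the only term), and p-values were adjusted by Benjamini-Hochberg over the 18352 genes tested, two-sided. A normalized count is the count over the TMM-scaled library size, multiplied by the mean scaled size. Log2 CPM used a prior count of 2. DESeq2 1.42.0 and limma 3.58.1 served as alternatives. The fitting code was tested on simulated data.

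The labels call the samples biological replicates without saying which animals or cultures they share, so that p-values measure the spread between these libraries. Replicates of a group differed by more than sampling noise. Deviations from the group means correlated over genes at 0.113, 0.463 and 0.168 for control and knockout libraries of the same number, and at -0.529 to 0.197 for different numbers, so that only the pair of number 2 stood out. Since each same-number correlation was above 0.1, the number was also fitted as a block. The pairing comes from the numbers in the labels, and control replicate 4 has no partner.

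The members and lists were chosen with earlier results of these data known. Named genes are the members, Klf13, further family genes, in each list those with the highest and lowest called changes and that with the highest level per length, the nearest profiles, and low or leading markers. Further genes named in lists, such as Camk2d, Gna11, the OPC markers and the Homer genes, were chosen after their values were seen. The restriction to libraries of high or low ribosomal RNA share was added after seeing the data. The limit on the expected count, given after Grm6 for a library without counts, covers counting error only. The intervals of fold changes come from the edgeR fit and include the spread between libraries. Protein sequences and the promoters of 5 receptor genes were not used here. A result for 1 withheld item is not reported here.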

Additional observations from a re-analysis of the deposited data

Results flagged for a closer look

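In 3 of the 10 receptor genes, 1 control library stood apart from the other 3 by Dixon's test at 95%. Such a gap arises by chance in about 5% of groups, and groups of 3, such as the knockouts, were not tested. Grin2d had 21.5 normalized counts in control replicate 4 against 45.9 to 50.3 in the other controls. Grin3a had 2853 in control replicate 3, and 3651 to 3772 in the others. Grm7 had 1436 in control replicate 3 against 1190 to 1230. Control replicate 3 is also the library with the highest sums of microglia markers (54678) and of fibroblast and mural cell markers (41244), whose part in these values was not tested.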

How the results depend on the processing

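Under 16 other settings and 2 added after seeing the data, 152 of 180 values of receptor genes kept their direction and their side of an adjusted p of 0.05. Grin3a changed sign with the replicate block (0.0022), without control replicate 4 (0.014, the upper end of -0.13 to 0.014 over left-out libraries) and within the libraries of low ribosomal RNA share (0.11). Of the 7 higher and 1 lower receptor genes, 4 higher ones were called with no filter on low counts, where 1535 of 34026 genes were higher and Grin2b, Grin2c and Grm4 lost the call at log2 fold changes of 2.64, 1.66 and 2.09, and 2 and 0 higher within the libraries of high and of low share, with 0 lower in the latter. With each library left out in turn, 4 to 7 were higher and 1 to 2 lower. At an absolute log2 fold change of 1, 6 higher and 0 lower genes became 3 higher with no filter, 1 and 0 higher within the classes of high and low share, and 1 lower (Grm7) with library sizes without Gm42418, Gm23935 and Lars2, with the block and within the high class. Left-out libraries gave 3 to 6 higher and 0 to 1 lower, the 1 being Grm7 without control replicate 1 or 2 or knockout replicate 2. The pathway genes (26 higher, 2 lower) gave 10 and 0 higher within the 2 classes, 0 lower in the low class, 3 lower in the high class and 1 lower with upper quartile normalization, and 12 to 25 higher and 1 to 2 lower with a library left out. Knockout replicate 2 gave the lowest numbers of higher genes when left out, with 850 higher genes in all against 2122. In the low class no gene was called, Klf13 included. The classes hold fewer libraries, and for the rest the cause was not tested. The replicate block changed no other call of a receptor gene. Among the 10 receptor genes Grm3 had the lowest counts, with 16 to 97 per library.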
